A study of Mus musculus with 8 samples.

Results

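Oligo2c is 1 of 8 clusters that the study drew among the oligodendrocytes of aged mouse brain, and it was found almost only in white matter. Its members were taken as every cell that the deposited cell table assigns to Oligo2c. They numbered 971 of 15604 oligodendrocytes, and 3 of them came from the 3 gray matter libraries and all others from the 5 white matter libraries.

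All mice were 24-month-old males. Wild-type (WT) mice were C57BL/6 in the labels and C57BL/6J in the study's methods, and Rag1-/- mice carry a targeted Rag1 allele and have no functional lymphocytes. White matter (optic tract, medial lemniscus and corpus callosum) and frontal cortex gray matter were dissociated with papain in the presence of actinomycin D, sorted for living cells and profiled with 10x Genomics 3′ single-cell RNA-seq, which counts unique molecular identifiers (UMIs). There were 2 WT and 3 Rag1-/- white matter libraries and 2 WT and 1 Rag1-/- gray matter libraries. Each WT library pooled several mice, and Rag1-/- library 1 pooled mice as well. Rag1-/- libraries 2 and 3 are recorded as single mice, although their labels speak of combined tissue samples. The labels name the Rag1-/- strain NOD.129S7(B6)-Rag-1tm1Mom/J, while the study's methods give B6.129S7-Rag1tm1Mom/J on the C57BL/6J background. Genotype therefore cannot be told apart from experiment, from alignment software release and possibly from strain in any WT against Rag1-/- value below.

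Oligodendrocytes are the glial cells that wrap axons in myelin. Mature oligodendrocytes are not uniform along the neuraxis. One mature state, marked by Klk6, S100b and Hopx, is known to be enriched in white matter and spinal cord, and another, marked by Ptgds, is known to be enriched in gray matter. In aging and injury, oligodendrocytes can also express the serine protease inhibitor Serpina3n, complement C4b and MHC class I genes.

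Values per library are given in the order WT 1, WT 2, Rag1-/- 1, Rag1-/- 2 and Rag1-/- 3, all white matter. CPM give the share of a gene in all UMIs, scaled to a common total, after summing the cells of a cluster in a library. The 5 libraries held 36, 348, 210, 101 and 273 Oligo2c cells, with 545008 to 4660655 UMIs in all and 11178.5 to 16482 UMIs in the median cell. WT library 1 thus rests on 36 cells. No cell barcode of Oligo2c was shared between libraries. Across all cells, the T cell marker genes (12 listed) summed to 781 and 594 CPM in WT white matter and to between 71.9 and 87.5 CPM in the Rag1-/- libraries. Rag1 itself gave 0 and 24 UMIs in WT white matter and 60 to 108 in Rag1-/- white matter. Where these reads lie relative to the altered part of the allele was not examined, so the Rag1 counts check no label.

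The cells carried the transcripts of mature oligodendrocytes, with means of 3116 CPM for the myelin-associated glycoprotein gene Mag and 1232 CPM for Mog. Markers that define other cell types were counted if they averaged at least 5 CPM in Oligo2c or in the other oligodendrocytes. This held for 0 of 12 neuronal and 0 of 11 T cell genes. It held for 10 of 14 microglia, 6 of 12 astrocyte, 5 of 7 blood and 2 of 10 oligodendrocyte precursor genes. It also held for 2 of 8 choroid plexus and ependyma and 1 of 12 endothelial and mural genes. In Oligo2c, astrocyte genes summed to between 132 and 178 CPM and precursor genes to between 633 and 725 CPM. Endothelial and mural genes summed there to between 222 and 299 CPM, and blood genes to 101, 6.87, 86.4, 35.5 and 16.3 CPM. The 14 microglia markers summed to 659, 112, 356, 133 and 228 CPM in Oligo2c, and to 799, 102, 357, 144 and 250 CPM in the other oligodendrocytes of the same libraries. Both sums were highest in WT library 1. That library also stood apart in glucocorticoid and stress genes, whose sum in Oligo2c was 1717, 787, 980.4, 882 and 689 CPM. Cdkn1a, a cell cycle inhibitor of the stress response, was at 114 CPM in WT library 1 and at 1.93 to 8.56 CPM in the others, and Sgk1, a kinase induced by glucocorticoids, at 547 and at 76.3 to 354 CPM. The part of these genes in the results was not tested.

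The marker genes given for the cluster were Klk6, S100b and Piezo2. Klk6, an extracellular serine protease found in myelinating glia (GRCm38 chromosome 7, 43824499 to 43832030, plus strand), stood at 873, 1406, 604, 657 and 1034 CPM in Oligo2c. In the other oligodendrocytes of the same libraries it stood at 136, 261, 183, 188 and 298 CPM. Oligo2c and Oligo2a had like levels of Klk6, with means of 915 and 819 CPM, and Oligo2c ranked first in 3 of 5 libraries. Oligo2b, which with these clusters makes up the Oligo2 group, had 73.7 CPM, and the age-related oligodendrocytes (ARO) had 289 CPM.

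S100b, a calcium-binding protein (chromosome 10, 76253853 to 76261159, plus strand), stood at 815, 904, 664, 831 and 1114 CPM in Oligo2c. Its highest level was in Oligo2a, with a mean of 1863 CPM, and Oligo2c ranked first in 0 of 5 libraries. Piezo2, a mechanically gated cation channel, stood at 47.7, 73.8, 45.3, 45.9 and 59.2 CPM in Oligo2c. It was lower in every other cluster in each of the 5 libraries, with means of 22.1 CPM in Oligo2a, 18.8 CPM in ARO and 4.18 CPM in Oligo2b. Of the 3 markers, Piezo2 was thus the one whose highest level lay in Oligo2c throughout. These comparisons between clusters are descriptions without a test, because the clusters were drawn from the same genes.

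**Figure D1:**
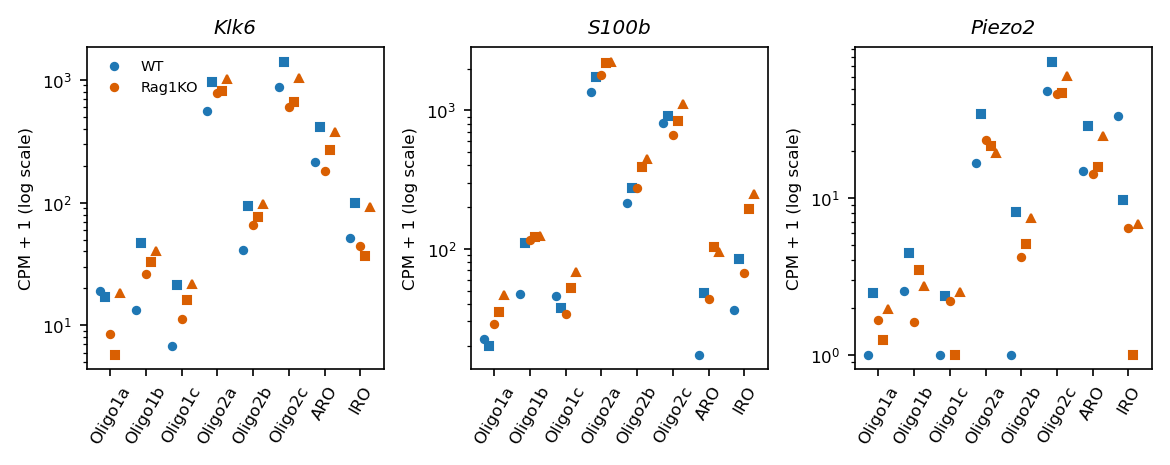
Levels of Klk6, S100b and Piezo2 (CPM + 1, log scale) in the 8 oligodendrocyte clusters of the 5 white matter libraries, 1 symbol per library (blue WT, orange Rag1-/-). Klk6 and S100b were high in both Oligo2a and Oligo2c, and Piezo2 was highest in Oligo2c in all 5 libraries.

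The markers were not in every cell. As deposited, at least 1 UMI of Klk6 was found in 71.4% to 79.2% of Oligo2c cells per library, of S100b in 74.8% to 86.1% and of Piezo2 in 28.1% to 42.2%. Microglia, which should lack these transcripts, gave 1.69% to 7.27%, 3.43% to 12.6% and 0% to 1.35%. After thinning every cell to 2000 UMIs, the mean shares in Oligo2c were 54.0% ± 3.7 for Klk6, 58.5% ± 6.0 for S100b and 8.51% ± 2.07 for Piezo2 (SD, n = 5). Oligo2a at that depth gave 63.3%, 91.1% and 3.30%, and thinned microglia gave 1.61%, 2.73% and 0.113%. Between 26.2% and 35.6% of Oligo2c cells held all 3 markers, and between 7.33% and 14.3% held none. Klk6 was also uneven among cells, with a median of 7 UMIs and a maximum of 220 UMIs per cell over all 348 Oligo2c cells of WT library 2.

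Oligo2c was a white matter population in both genotypes. It made up 7.29%, 8.48%, 6.87%, 6.19% and 7.07% of white matter oligodendrocytes. In gray matter it was 1 of 284 and 1 of 1119 oligodendrocytes in WT and 1 of 1055 in Rag1-/-. The pooled share in WT was 58.6 times higher in white than in gray matter, with an exact 95% interval of 16.1 to 485 that covers counting error only. In Rag1-/- the ratio was 72.1 (12.9 to 2852). Oligo2a, its near relative, was enriched by 2.76 times in WT and 3.47 times in Rag1-/- white matter, and Oligo2b was less frequent in white than in gray matter (0.455 and 0.726 times). ARO had the nearest pattern to Oligo2c, with 1 cell in WT and 0 in Rag1-/- gray matter. Beyond these counting intervals the difference between tissues was given no test.

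By its whole profile Oligo2c stood next to Oligo2a and Oligo2b. The root mean square difference of log2 levels, over genes of at least 50 CPM, was 0.215 to 0.329 from Oligo2a and 0.201 to 0.350 from Oligo2b. It was 0.311 to 0.416 from ARO and 0.298 to 0.538 from the Oligo1 clusters. Oligo2a was the nearer of the pair in both WT libraries and Oligo2b in the 3 Rag1-/- libraries, though the gaps were small. By library the values were 0.329, 0.215, 0.230, 0.259 and 0.230 from Oligo2a. From Oligo2b they were 0.350, 0.231, 0.201, 0.211 and 0.226. They include counting noise, and the part of cell numbers in them was not tested. Oligo2c cells were also rich in RNA, second to Oligo2a in median UMIs in all 5 libraries.

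The 20 leading genes were those with the highest smallest within-library ratio of Oligo2c to all other oligodendrocytes. In order, they were Piezo2, Klk6, Serpina3n, Apod, Aldh1l2, Fxyd1, Serpind1, Hopx, B2m, H2-D1, Crip2, C4b, Selenop, Enpp6, Trf, Poc1a, S100b, Aven, Tppp3 and Gsn. Their levels fell into groups by the second cluster in which they were high. Oligo2c was the top cluster by mean for 9 of the 20, and for Piezo2, Aldh1l2, Trf and Poc1a in each of the 5 libraries.

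One group of these genes was as high or higher in Oligo2a and low in ARO. Hopx, a homeodomain-only protein without DNA binding of its own, averaged 795 CPM ± 69.5 in Oligo2c (SD, n = 5) against 1078 CPM in Oligo2a and 125 CPM in ARO. Selenop, the selenium transport protein, averaged 1629 CPM ± 126 against 1861 CPM in Oligo2a and 348 CPM in ARO. Enpp6, a choline phosphodiesterase of early myelinating oligodendrocytes, averaged 449 CPM ± 39 against 528 and 76.2 CPM. Aven, Tppp3 and Gsn, the actin-severing gelsolin, were likewise highest in Oligo2a.

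Another group was high in ARO or in the interferon-responsive oligodendrocytes (IRO) and low in Oligo2a. Serpina3n, an acute-phase serine protease inhibitor, stood at 842, 996, 368, 485 and 674 CPM in Oligo2c, with means of 722 CPM in ARO and 83.5 CPM in Oligo2a. Fxyd1, a regulator of the sodium pump, averaged 145 CPM ± 56 against 158 CPM in ARO and 22.6 CPM in Oligo2a. Complement C4b stood at 2259, 2476, 1296, 1882 and 1963 CPM, with means of 1881 CPM in ARO and 634 CPM in Oligo2a. H2-D1, an MHC class I heavy chain, averaged 445 CPM ± 297 and its light chain B2m 244 CPM ± 180. Both were higher in IRO, at 1331 and 840 CPM, and lower in Oligo2a, at 140 and 88.2 CPM.

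The remaining group was highest in Oligo2c itself and included secreted and iron-handling products. Trf, transferrin, the iron carrier made by oligodendrocytes, stood at 12042, 11168, 12229.7, 11939 and 12437 CPM, a narrow spread, against 8539 CPM in Oligo2a and 8561 CPM in ARO. Apod, a lipocalin that carries small lipids, averaged 17284 CPM ± 4917 against 12778 CPM in Oligo2a and 6785 CPM in ARO. Its level in Rag1-/- library 1, 8856 CPM, was less than the 17022 CPM or more of the other 4. Aldh1l2, the mitochondrial formyltetrahydrofolate dehydrogenase, averaged 81.3 CPM ± 19.0 against 54.3 CPM in ARO, the next highest cluster.

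**Figure D2:**
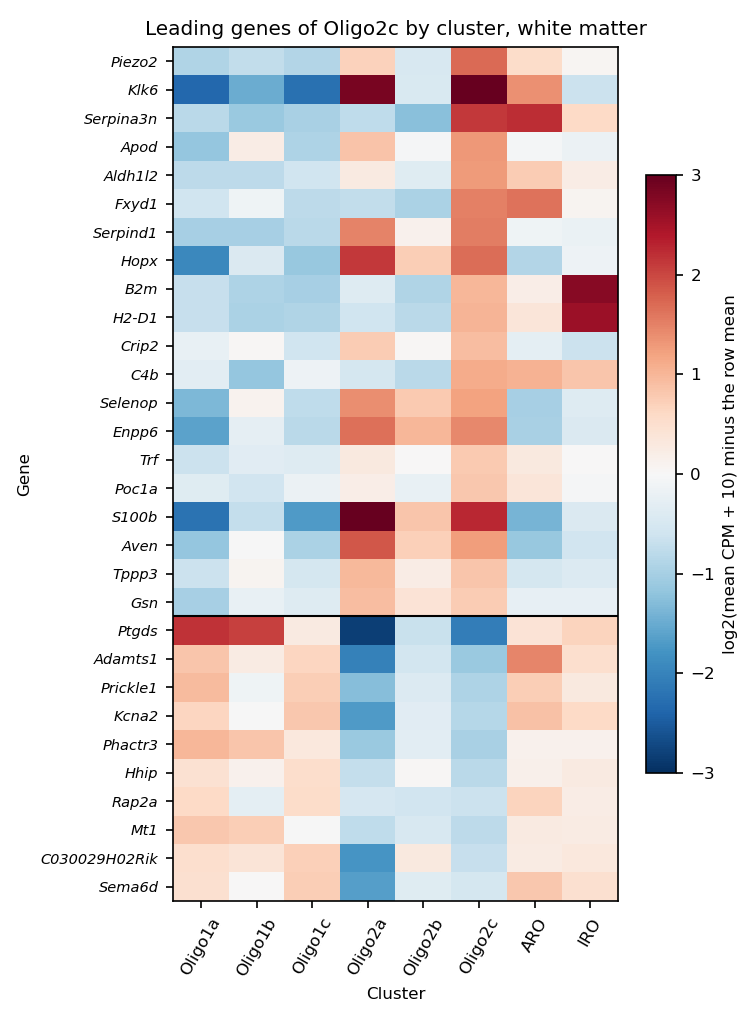
Leading genes of Oligo2c (20 higher above the line, 10 lower below it) in the 8 clusters, as log2(mean CPM + 10) over the 5 white matter libraries minus the mean of the row. Oligo2c took high values both for genes that were high in Oligo2a, such as Hopx and S100b, and for genes that were high in ARO or IRO, such as Serpina3n, C4b and B2m.

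The genes that were lowest in Oligo2c relative to the other oligodendrocytes included Ptgds, Adamts1, Prickle1, Kcna2, Phactr3, Hhip, Rap2a, Mt1, C030029H02Rik and Sema6d. Ptgds, a prostaglandin D synthase, stood at 932, 883, 1298, 1123 and 953 CPM in Oligo2c. It averaged 20034 CPM in Oligo1a, 18306.5 CPM in Oligo1b and 7706 CPM over all other cells. Oligo2a averaged 616 CPM, with 1776 CPM in WT library 1, above Oligo2c, and 223 to 379 CPM in the other 4 libraries, below it. White matter held 0.133 (WT) and 0.187 (Rag1-/-) times the gray matter share of Oligo1b. For Oligo1a these ratios were 1.25 and 1.38, so high Ptgds was not limited to a gray matter cluster. Kcna2, a voltage-gated potassium channel, averaged 28.7 CPM ± 4.9 against 78.4 CPM.

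Direct comparison with each neighbour showed the same mixture. Against Oligo2a, 8 genes were higher by more than 1 on the log2 scale (CPM + 10) in all 5 libraries. They were Serpina3n, Opalin, Fxyd1, Cd9, C4b, Cebpd, H2-D1 and Arpc1b. Opalin, a myelin membrane glycoprotein, averaged 658 CPM ± 124 in Oligo2c and 105 CPM ± 30 in Oligo2a. Cd9, a tetraspanin, averaged 789 CPM ± 85 against 235 CPM ± 44, and Cebpd, an acute-phase transcription factor, 101 CPM ± 17 against 27.2 CPM ± 6.0. The 4 genes lower by as much were Paqr6, Ldhb, Luzp2 and Uchl1, and Ldhb, a lactate dehydrogenase subunit, averaged 97.6 CPM ± 26.4 against 273 CPM ± 55.

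Against Oligo2b, 12 genes were higher by more than 1 in all 5 libraries, led by Klk6, Serpina3n, Fxyd1, Piezo2, C4b, H2-D1, Aldh1l2 and B2m, and 0 genes were lower by as much. Against ARO, 29 genes were higher by as much, led by S100b, Plin3, Aven and Hopx, and 33 were lower, led by Vim, Adamts1, 7630403G23Rik and Kirrel3. Vim, the intermediate filament vimentin, averaged 7.85 CPM ± 3.48 in Oligo2c and 123 CPM ± 41 in ARO. Plvap averaged 8.69 CPM and Nr4a1, an immediate early receptor gene, 4.74 CPM, against 75.6 and 57.7 CPM in ARO. Oligo2c thus held the Serpina3n and C4b levels of ARO without those of Vim, Plvap and Nr4a1.

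Gene lists gave the same picture. In all, 9283 genes averaged at least 5 CPM in Oligo2c or in the other oligodendrocytes. Of these, 11.6% were higher in Oligo2c than in the others in all 5 libraries and 16% were lower, with a median log2 ratio of −0.02. The Oligo2 list had 42 of 49 measured genes higher and 1 lower (median 0.60). This list and those for Oligo1, ARO and IRO were drawn up by the study from other cells, profiled with Smart-seq2, as markers of populations of the same names. The Oligo1 list had 0 of 13 higher and 12 lower (median −0.62). The ARO list had 29 of 86 higher and 17 lower (median 0.15), and the IRO list had 10 of 17 higher and 0 lower (median 0.34).

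Among lists of general function, cholesterol synthesis had 12 of 21 genes higher and 1 lower (median 0.25). Hmgcs1, the synthase at the start of the mevalonate pathway, averaged 339 CPM in Oligo2c, 386 CPM in Oligo2a and 243 CPM over all other cells. The sterol oxidase gene Msmo1 averaged 227 CPM against 171 CPM over all other cells. Insig1, which restrains sterol synthesis, averaged 83.4 CPM against 106 CPM and was the 1 gene of the list that was lower throughout. Myelin protein genes were split, with 11 of 25 higher and 8 lower (median 0.03). Ermn averaged 3631 CPM against 2852 CPM, and Mal, a proteolipid of myelin rafts, 3822 CPM against 5496 CPM. MHC class I presentation had 3 of 11 higher and 0 lower, namely H2-D1, B2m and H2-K1. Immediate early genes had 0 of 10 higher and 5 lower (median −0.31). Iron storage and transport had 5 of 9 higher and 1 lower (median 0.19), and besides Trf the ferritin heavy chain Fth1 averaged 34031 CPM against 27982 CPM.

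The sequence before the start of genes that led these groups is shown for reference, since promoters are where the factors of each program are known to act. RefSeq sequences on GRCm38.p6 were found for 15 of the 20 leading genes. Piezo2, Aldh1l2, C4b, Trf and Tppp3 had no entry. The 250 bases before the start are printed 5′ to 3′ on the strand of the gene, with the motif in capitals.
Klk6, at the first of 2 listed starts (chr7:43824294-43824543, plus strand), with the core ACAAAG of SOX factors, the family of the oligodendrocyte regulator Sox10:
Klk6: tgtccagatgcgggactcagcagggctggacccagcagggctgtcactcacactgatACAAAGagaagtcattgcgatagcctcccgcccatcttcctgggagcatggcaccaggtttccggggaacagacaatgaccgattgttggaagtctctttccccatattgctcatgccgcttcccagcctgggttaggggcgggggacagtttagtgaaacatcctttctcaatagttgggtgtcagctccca
Apod (chr16:31314809-31315058, minus strand), with the same core:
Apod: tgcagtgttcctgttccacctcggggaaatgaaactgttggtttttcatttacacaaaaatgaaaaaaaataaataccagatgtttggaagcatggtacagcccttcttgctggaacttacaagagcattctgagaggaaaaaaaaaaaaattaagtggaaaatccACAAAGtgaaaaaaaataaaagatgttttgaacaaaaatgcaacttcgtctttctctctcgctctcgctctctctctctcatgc
B2m (chr2:122147437-122147686, plus strand), with the core of interferon-stimulated response elements, a pair of GAAA with any 2 letters between:
B2m: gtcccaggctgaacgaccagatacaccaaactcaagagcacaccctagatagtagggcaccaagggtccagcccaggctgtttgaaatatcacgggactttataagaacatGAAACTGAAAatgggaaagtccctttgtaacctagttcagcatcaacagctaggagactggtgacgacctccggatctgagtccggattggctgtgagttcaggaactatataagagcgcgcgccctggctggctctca
Hmgcs1 (chr13:119690101-119690350, plus strand), with the sterol regulatory element TCACNCCAC:
Hmgcs1: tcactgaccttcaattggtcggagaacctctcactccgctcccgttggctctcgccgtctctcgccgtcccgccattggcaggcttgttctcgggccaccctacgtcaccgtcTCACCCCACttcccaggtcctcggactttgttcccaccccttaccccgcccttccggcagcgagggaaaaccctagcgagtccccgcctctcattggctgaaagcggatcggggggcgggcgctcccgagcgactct

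Both strands were searched, and the printed matches overlapped no match to the other 2 motifs. The SOX core was present before 7 of the 15 leading genes with an entry (Klk6, Apod, Fxyd1, Serpind1, B2m, Crip2 and Aven) and before 18.6% of all 27025 gene symbols. The interferon element core was present for 3 of 16 genes of MHC class I presentation (B2m, H2-T22 and H2-T23) and for 3.46% of all symbols. The sterol element was present for 1 of 16 cholesterol genes, Hmgcs1, and for 1.22% of all symbols. These matches describe letters in a short window and say nothing of binding.

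The second question was whether Oligo2c differed between mice with and without lymphocytes. Its share of white matter oligodendrocytes was 7.88% ± 0.84 in WT (SD, n = 2) and 6.71% ± 0.46 in Rag1-/- (SD, n = 3). Every Rag1-/- library lay below both WT libraries, but the difference did not pass the test. The log2 difference was −0.24 ± 0.23 (SE) with an adjusted p of 0.420 by edgeR's quasi-likelihood test over the 8 clusters. The exact two-sided permutation test gave p = 0.2, the smallest that 2 against 3 libraries allow, and shares of 6 of the 8 clusters did not overlap between genotypes.

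Within the Oligo2 cells the picture was different. Oligo2c made up 27.9% and 27.2% of Oligo2 cells in WT and 19.4%, 17.2% and 18.4% in Rag1-/- white matter. On this denominator the log2 difference was −0.55 ± 0.08 (SE) with an adjusted p of 2.55e-05 by edgeR over 3 clusters. The 3 shares of a library sum to a fixed total, so the fit had few independent values from which to take the spread between libraries. No permutation test was run on this denominator, where 2 against 3 libraries allow no p under 0.2. Leaving out each library in turn, added after the data were seen, gave −0.59 to −0.53, and without WT library 2 the difference did not pass (adjusted p = 0.0753, edgeR). The shares of Oligo2a (9.07% in WT, 12.4% in Rag1-/-) and Oligo2b (11.7% and 17.5%) of all oligodendrocytes were higher in Rag1-/-, though neither passed the test (adjusted p = 0.144 for both, edgeR). Cells were placed in clusters by their transcripts, among them genes whose levels differed between the libraries as given below, and the part of this in the shares was not tested.

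**Figure D3:**
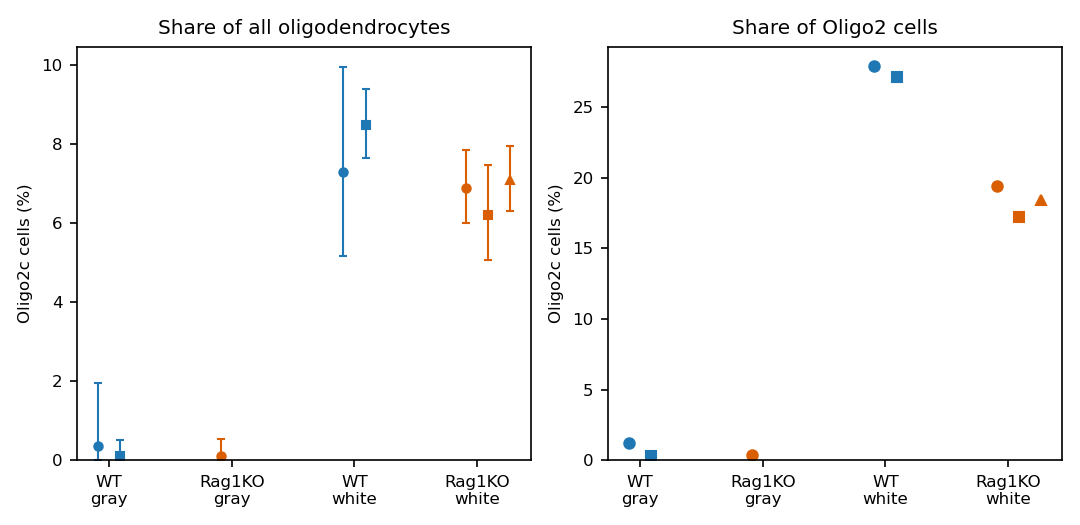
Oligo2c cells as a percentage of all oligodendrocytes (left, with exact 95% counting intervals) and of Oligo2 cells (right), 1 symbol per library. White matter shares of Oligo2 cells were 27.2% and 27.9% in WT and 17.2% to 19.4% in Rag1-/-, and gray matter libraries held 1 Oligo2c cell each.

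Gene by gene within Oligo2c, 85 of 9545 genes passed the test between Rag1-/- and WT white matter (0.891%), of which 69 were higher (0.723%) and 16 lower (0.168%) in Rag1-/-. DESeq2 called 79, of which 73 were the same genes. Without WT library 2, which holds most of the WT cells, 51 genes passed, 29 higher and 22 lower, and 34 of them were among the 85. Most of these differences were not particular to Oligo2c. In the other oligodendrocytes of the same libraries, where 0.856% of all genes passed, 84 of the 85 had the same sign and 70 passed the test in the same direction, and the difference between the 2 cell sets passed for 2 of the 85. Many were near absence in 1 genotype, since 37 averaged under 5 CPM in WT and 10 under 5 CPM in Rag1-/-.

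The 8 highest log2 differences belonged to Mrpl53, Hbb-bs, Fam89b, Atp6v0c, Rnasek, Gng10, Tll2 and Hgs. Atp6v0c, the membrane ring subunit of the vacuolar proton pump, stood at 3.67 and 1.93 CPM in WT and at 526, 493 and 481 CPM in Rag1-/- libraries. Mrpl53, a mitochondrial ribosomal protein, gave 0 UMIs in both WT libraries and 101 to 115 CPM in Rag1-/-. The globin gene Hbb-bs gave 0 UMIs in WT and 48.3, 18.3 and 9.86 CPM in Rag1-/-. Other blood genes were seen in WT, as the blood list summed to 101 and 6.87 CPM there. It summed to 86.4, 35.5 and 16.3 CPM in Rag1-/- Oligo2c cells. The 8 lowest belonged to Ptp4a1, AC160336.1, Amd2, Fam220a, Gm43713, Coro1b, Rps6ka4 and Kcnk2. Ptp4a1, a phosphatase, stood at 527 and 475 CPM in WT and at 2.54, 1.83 and 0.85 CPM in Rag1-/-.

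Of the 85 genes, 51 (60%) shared exon sequence on the same strand with another gene in GENCODE vM21, against 8.88% of all genes tested, and reads of such genes may be counted for either. The study's methods name a different Cell Ranger release for the WT and for each Rag1-/- experiment. When genes with such overlap were left out, a comparison added after the data were seen, 23 of 8676 genes passed, 17 higher and 6 lower. The part of the gene models in these differences was not tested further.

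**Figure D4:**
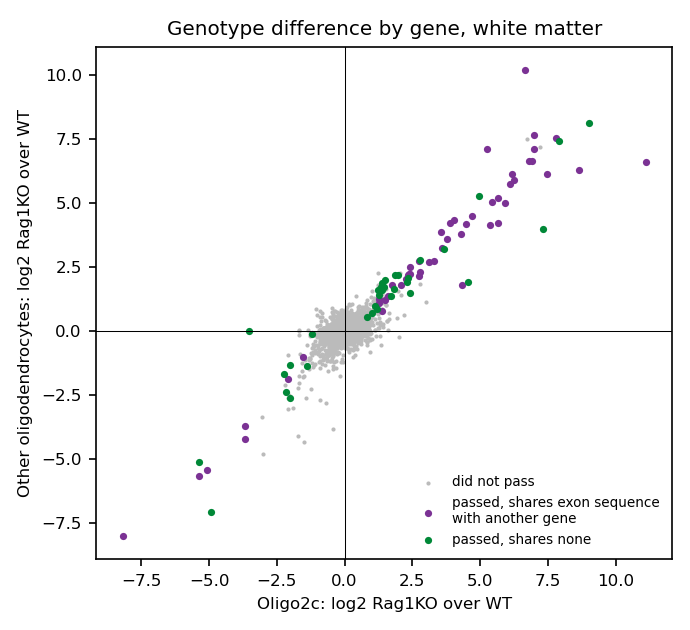
Log2 differences between Rag1-/- and WT white matter in Oligo2c (horizontal) and in the other oligodendrocytes (vertical), 1 point per gene. Genes that passed in Oligo2c (coloured) mostly had like differences in both cell sets, and 51 of the 85 shared exon sequence with another gene.

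A few genes of known function were among the 34 that passed the test of all 9545 genes and had no overlapping gene. Of these 34, 25 were higher and 9 lower in Rag1-/-. H2-K1, an MHC class I heavy chain, stood at 248 and 104 CPM in WT and at 68.6, 48.9 and 56.3 CPM in Rag1-/- Oligo2c cells. Its log2 difference was −1.39 ± 0.29 (SE, adjusted p = 0.0373, edgeR), and it was −1.37 ± 0.25 in the other oligodendrocytes (adjusted p = 0.0644, edgeR). It did not pass in Oligo2c without WT library 1, where it was −0.77, nor without Rag1-/- library 1 or 2 or by DESeq2 (adjusted p = 0.182, 0.0910, 0.108 and 0.199). Cd59a, an inhibitor of the complement membrane attack complex, stood at 116 and 80.2 CPM in WT and at 48.7, 38.5 and 31.6 CPM in Rag1-/-. It fell by 1.19 ± 0.22 on the log2 scale (adjusted p = 0.0178, edgeR), against −0.12 ± 0.19 in the other oligodendrocytes. It did not pass without WT library 1, where it was −0.97, nor without Rag1-/- library 2 or 3 (adjusted p = 0.103, 0.0670 and 0.0521, edgeR). Kcnk2, a mechanosensitive leak potassium channel, was at 5.50 and 9.01 CPM in WT and 0, 0 and 1.41 CPM in Rag1-/-, a difference that rests on few UMIs and was lost in 7 alternatives, among them DESeq2 and leaving out WT library 1 or Rag1-/- library 1 or 2. Slc25a27, a mitochondrial carrier on the study's Oligo2 list, stood at 66.1 and 67.6 CPM in WT and at 185, 179 and 179 CPM in Rag1-/- (log2 difference 1.48 ± 0.15, adjusted p = 4.95e-05, edgeR). In the other oligodendrocytes its difference was 2.00 ± 0.14 (adjusted p = 2.58e-04, edgeR). When genes with overlap were left out, 6 lower genes passed in place of 9. H2-K1, Kcnk2 and Tmem267 had the highest unadjusted p of the 9 in the test of all genes (2.97e-04, 3.11e-04 and 3.13e-04, edgeR). By these values H2-K1 and Kcnk2 were not among the 6, and their calls rest on the test that kept overlapping genes.

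Of the 20 leading genes of Oligo2c, 0 passed between genotypes by edgeR or by DESeq2. Of all 9545 genes tested, 481 had an unadjusted edgeR p under 0.05, as did 6 of these 20. Their median log2 difference was −0.15 against −0.01 over all genes, and it was −0.07 without Rag1-/- library 1, −0.09 without WT library 2 and −0.31 without Rag1-/- library 3. Several had libraries that did not overlap. H2-D1 stood at 967 and 405 CPM in WT and at 264, 293 and 294 CPM in Rag1-/- (log2 difference −1.18 ± 0.26, adjusted p = 0.0585, edgeR). B2m stood at 558 and 228 against 115, 146 and 174 CPM (−1.30 ± 0.29, adjusted p = 0.0640, edgeR). Without WT library 1 the differences were −0.44 for H2-D1 and −0.58 for B2m (adjusted p = 0.702 and 0.731, edgeR). Both genes passed without WT library 2 (−1.71 and −1.88) and without Rag1-/- library 3 (−1.21 and −1.48). Serpina3n was at 842 and 996 against 368, 485 and 674 CPM (−0.80 ± 0.20, adjusted p = 0.141, edgeR), and passed without Rag1-/- library 3 (−1.05, adjusted p = 0.00324). The libraries of 6 of the 20 were lower in Rag1-/- without overlap and 0 were higher, where 14.9% and 7.56% of all genes did so.

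Lists of immune genes had negative medians in Rag1-/- Oligo2c cells. H2-K1, on the MHC class I and IRO lists, was the 1 gene of them that passed by edgeR in the test of all 9545 genes. Of all 9545 genes, 14.9% were lower in Rag1-/- without overlap between the libraries, the share against which the counts below are to be read. MHC class I presentation had 8 of 11 genes lower without overlap (median −0.85). The study's IRO list had 11 of 20 lower without overlap (median −1.21), and 20 of 20 had a negative difference where 51.1% of all genes did, but 15 of 20 without WT library 2. Type I interferon-stimulated genes had 4 of 11 lower without overlap (median −0.71). Of these 11, 0 passed by edgeR and 1 by DESeq2. An unadjusted edgeR p under 0.05 was found for 4 of them and for 481 of all 9545 genes tested. It was also found for 12 of 20 genes of the IRO list and for 6 of 11 of MHC class I presentation. Ifi27l2a, an interferon-induced gene, stood at 248 and 241 CPM in WT and at 106, 14.1 and 92.4 CPM in Rag1-/-. In the other oligodendrocytes the medians of these 3 lists were −0.95, −1.66 and −2.53. Those cells include IRO, which made up 4.43% of white matter oligodendrocytes in WT and 1.06% in Rag1-/-. The part of IRO in these medians was not tested. Acute-phase genes had 6 of 10 lower without overlap (median −0.49), myelin proteins 7 of 25 (median −0.06) and cholesterol synthesis 7 of 21 (median −0.22). Glucocorticoid and stress genes had 5 of 15 lower without overlap and a median of −0.51. Without WT library 1 that median was −0.05, without WT library 2 −1.22 and without Rag1-/- library 1 −0.25. Without WT library 1 the median was −0.77 for the IRO list, −0.62 for MHC class I presentation and −0.87 for interferon-stimulated genes. Without Rag1-/- library 1 the median of acute-phase genes was −0.29 and that of myelin proteins 0.02, and without Rag1-/- library 2 that of cholesterol synthesis was −0.08. Without Rag1-/- library 3 that of interferon-stimulated genes was −1.12. H2-D1, B2m and H2-K1 were highest in WT library 1, the library of 36 cells that also had the highest microglia marker sum given above. Fewer transcripts per cell in all cells and fewer cells with high levels cannot be told apart in these sums. The sum of T cell markers moved with genotype as given above, and stood at 23.9 and 5.79 CPM in WT and 2.12 CPM or less in Rag1-/- Oligo2c cells.

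The comparison within libraries asked whether the step between Oligo2c and the other oligodendrocytes had another size in Rag1-/-. A shift common to both cell sets of a library drops out of it. The clusters were drawn from the same genes, markers such as Klk6 and S100b included, so its p-values take the cluster borders as given. The part of the cluster borders in these steps was not tested. The comparison passed for 32 of 10762 genes (0.297%), 5 with a higher (0.0465%) and 27 with a lower difference (0.251%) in Oligo2c. DESeq2 called 14 of these 32, and 15 genes passed without Rag1-/- library 1, 14 of them among the 32. Without WT library 2 the split was even, with 18 higher and 18 lower, and 14 of these 36 were among the 32. The lower ones were led by Cd59a, S100b, Nkx2-9, Klk6, Agmo, Hcn2, Enpp6 and Uchl1. Of the 27, 14 were on the study's Oligo2 list and 3 on the cholesterol synthesis list (Msmo1, Idi1 and Hmgcs1). The higher ones were Gm4221, Ptgds, C4b, Stat3 and Apoe.

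Klk6 in Oligo2c was 6.42 and 5.39 times its level in the other oligodendrocytes of the same library in WT, and 3.29, 3.48 and 3.47 times in Rag1-/-. The log2 difference of these steps was −0.72 ± 0.06 (SE, adjusted p = 1.02e-11, edgeR). The spread behind such an SE and p is taken partly from all genes, and WT library 1 rests on 36 cells. No permutation test was run on the steps, where 2 against 3 libraries allow no p under 0.2. For S100b the ratios were 3.68 and 2.88 in WT and 1.65, 1.61 and 1.90 in Rag1-/- (−0.83 ± 0.07, adjusted p = 4.85e-12, edgeR). Complement C4b went the other way, with ratios of 1.86 and 1.74 in WT and 2.43, 3.12 and 2.44 in Rag1-/- (0.57 ± 0.07, adjusted p = 1.99e-07, edgeR). C4b was lower in Rag1-/- in both cell sets by the fitted difference, by −0.41 ± 0.17 in Oligo2c and −0.98 ± 0.18 in the others, neither of which passed alone. Stat3, a transcription factor of the acute-phase response, differed in step by 0.52 ± 0.09 (adjusted p = 7.63e-04, edgeR).

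The make-up of the oligodendrocytes moved with genotype. Of all white matter oligodendrocytes, Oligo2c included, Oligo2a made up 9.07% in WT and 12.4% in Rag1-/-. ARO made up 21.6% and 12.2%, and IRO 4.43% and 1.06%. Of the 8 clusters, IRO was the only one to pass the share test (log2 difference −1.95 ± 0.34, SE, adjusted p = 0.0047, edgeR). The 27 lower genes were each more than 1.5 times higher in Oligo2a than in ARO, as were 11.4% of the 10762 genes tested, and the part of the make-up in the calls was not tested by this count. The test was repeated against single clusters. It passed for 7 genes against Oligo2a and Oligo2b together (3 higher and 4 lower), and, in comparisons added after the data were seen, for 11 against Oligo2a (6 higher and 5 lower) and 8 against Oligo2b (3 higher and 5 lower). Klk6, S100b, Msmo1, Apoe and Ptgds passed against each of these sets, while C4b missed against Oligo2a (adjusted p = 0.286, edgeR).

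Klk6 in Oligo2c was 1.56 and 1.48 times its level in Oligo2a in WT and 0.779, 0.818 and 1.02 times in Rag1-/- (−0.78 ± 0.08, adjusted p = 1.77e-10, edgeR). Against Oligo2b it was 21.8 and 15.2 times in WT and 9.30, 8.75 and 10.8 times in Rag1-/- (−0.68 ± 0.10, adjusted p = 3.42e-06, edgeR). S100b against Oligo2a was at 0.597 and 0.521 times in WT and at 0.371, 0.381 and 0.497 times in Rag1-/- (−0.39 ± 0.08, adjusted p = 0.00708, edgeR). Msmo1 against Oligo2a was at 1.29 and 1.09 times in WT and at 0.749, 0.658 and 0.868 times in Rag1-/- (−0.54 ± 0.10, adjusted p = 0.00212, edgeR). Apoe, the lipid-carrying apolipoprotein, against Oligo2a was at 0.949 and 1.43 times in WT and at 1.61, 1.80 and 1.44 times in Rag1-/- (0.44 ± 0.08, adjusted p = 0.00213, edgeR). Ptgds against Oligo2b was at 0.202 and 0.364 times in WT and at 0.538, 0.519 and 0.429 times in Rag1-/- (0.72 ± 0.09, adjusted p = 5.61e-09, edgeR). Against Oligo2a it was at 0.525 and 2.53 times in WT and at 3.42, 5.04 and 2.72 times in Rag1-/- (1.40 ± 0.19, adjusted p = 1.63e-06, edgeR). There WT library 2 lay close to Rag1-/- library 3, and WT library 1 lay far below both. For Apoe, WT library 2 (1.43) likewise lay close to Rag1-/- library 3 (1.44). The SE of edgeR takes its spread partly from all genes, so it does not measure the scatter of these ratios alone. Piezo2 was at 3.01 and 2.21 times its Oligo2a level in WT and 2.02, 2.24 and 3.20 times in Rag1-/-, ratios that overlapped, and the difference of 0.17 ± 0.20 did not pass.

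Within Oligo2c alone 0 of the 3 markers passed between genotypes by edgeR or DESeq2. Of all 9545 genes tested, 481 had an unadjusted edgeR p under 0.05, as did 1 of the 3 markers, Klk6. The differences were −0.53 ± 0.23 for Klk6 (adjusted p = 0.922, edgeR), 0.07 ± 0.19 for S100b and −0.31 ± 0.21 for Piezo2. The difference of Klk6 was −0.13 without WT library 2, −0.80 without WT library 1 and −0.81 without Rag1-/- library 3, and it passed in none of these fits (lowest adjusted p = 0.0661, edgeR). With no filter on low counts Klk6 did pass (−0.52, adjusted p = 0.0167, edgeR). The steps above used the other cells of each library as their reference, and when the library was not kept as a block, 0 genes passed by edgeR, with 141 at an unadjusted p under 0.05.

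**Figure D5:**
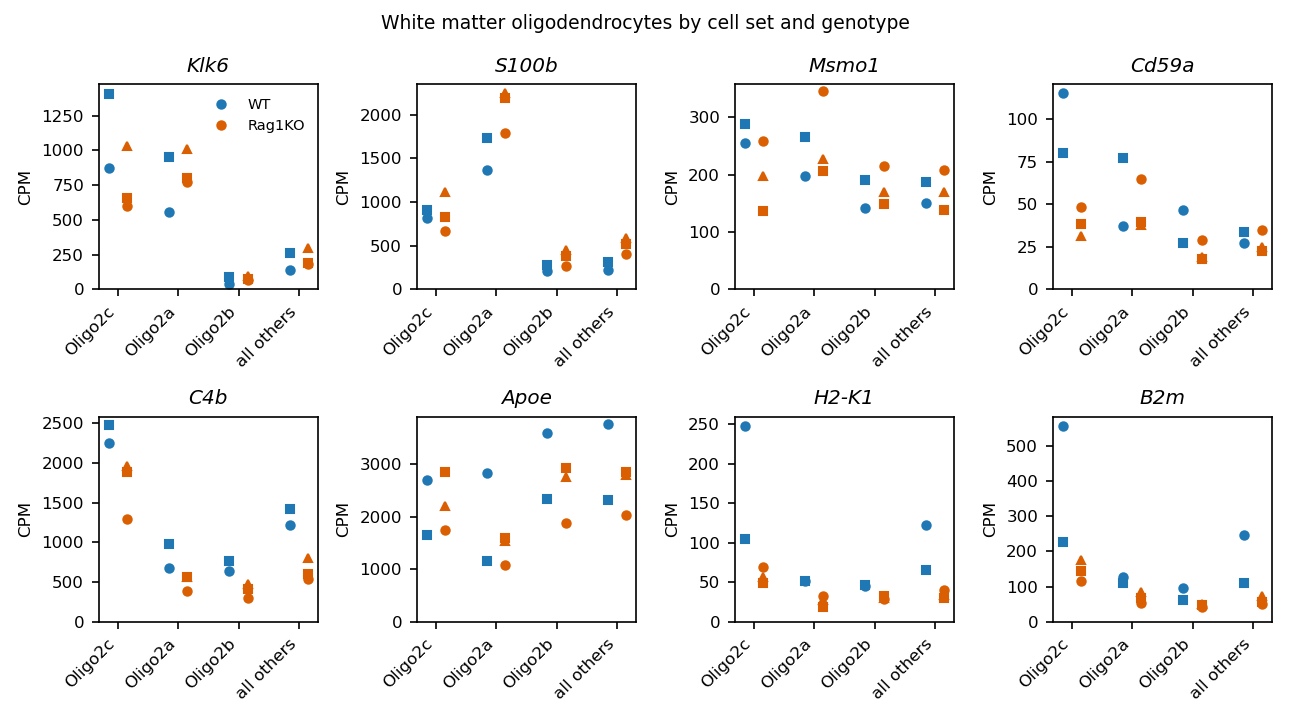
Levels of 8 genes (CPM) in Oligo2c, Oligo2a, Oligo2b and all other oligodendrocytes of the white matter libraries (blue WT, orange Rag1-/-, 1 symbol per library). Klk6 in Oligo2c lay above its Oligo2a level in both WT libraries and near or below it in the 3 Rag1-/- libraries, and the Rag1-/- points of H2-K1 and B2m in Oligo2c lay below both WT points.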

How the data were processed

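The deposited tables hold counts of UMIs per gene and cell, which the authors made with Cell Ranger (version 4 per the labels) on mm10 and filtered, together with tables of cells with cluster names. The UMI limits and the Cell Ranger release differed between experiments. The 2 ribosomal RNA-like genes Gm42418 and AY036118 were left out, and 16999 of 20352 genes that both genotypes' tables hold were kept. Doublets were not called again. Counts of Oligo2c, and of the other clusters, were summed per library, since libraries and not cells are the replicates. Where nothing says that libraries came from separate animals, p-values measure only the spread between libraries. For edgeR and DESeq2 that spread is estimated partly over all genes, not from the libraries of each gene alone.

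Genotypes were compared with edgeR 4.0.16 (TMM, filter on low counts, quasi-likelihood test) and Benjamini-Hochberg adjustment at 0.05, with 2 WT and 3 Rag1-/- white matter libraries. The within-library test kept the library as a block. Clusters were compared by log2(CPM + 10) without a test. Shares were compared by edgeR on cell numbers and by the exact permutation test. DESeq2, limma and the alternatives given further on were also run. On simulated data for the genotype comparison (9545 genes, of which 9391 passed the filter), 62 of 100 genes changed by 1 on the log2 scale and 94 of 100 changed by 2 were recovered, those that the filter removed counting as not recovered. Of the 9198 unchanged genes that passed the filter, 11 were called. The simulated counts had a preset spread, the same for every gene, and no effects of single libraries. These numbers hold for that setting and may differ in the real libraries.

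Genes were named by fixed rules: the 3 markers, the 20 genes of at least 50 CPM with the highest and the 12 with the lowest ratio to the other oligodendrocytes, taking the least extreme library, the 8 highest and 8 lowest against Oligo2a, Oligo2b and ARO, the 8 called genes with the highest and the 8 with the lowest log2 difference, and genes of the 35 lists that passed. The cluster and the lists were chosen with earlier results of these data known. Exact 95% intervals and shares of cells cover counting error only. Some genes that these rules select are not reported here.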

Additional observations from a re-analysis of the deposited data

Results flagged for a closer look

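Of the 32 genes of the within-library comparison, 26 were named by their rank or stood on a gene list. For these 26, the difference between Oligo2c and the other oligodendrocytes changed with genotype. The test was of that difference itself (edgeR, library as a block), with the cluster borders taken as given. The log2 difference of the genotype effect was −0.92 for Cd59a, −0.83 for S100b, −0.82 for Nkx2-9 (a homeobox gene), −0.72 for Klk6, −0.69 for Agmo (an ether lipid oxidase) and −0.60 for Hcn2 (a pacemaker channel). It was −0.58 for Enpp6, −0.57 for Uchl1 (a ubiquitin hydrolase), −0.46 for Msmo1, −0.45 for Hmgcs1 and −0.38 for Idi1, the last 3 of sterol synthesis. It was −0.54 for Tln2, −0.53 for Rapgef5, −0.46 for Hopx, −0.45 for Aven, −0.44 for Plin3, −0.42 for Anxa5, −0.38 for Selenop, −0.35 for Kcnq1ot1, −0.32 for Anln and −0.27 for Pmp22. It was 2.74 for Gm4221, 0.63 for Ptgds, 0.57 for C4b, 0.52 for Stat3 and 0.30 for Apoe. Against Oligo2a and Oligo2b in place of all other oligodendrocytes, 7 of them passed (Klk6, S100b, Msmo1, Hmgcs1, C4b, Apoe and Ptgds). The other 19 did not, with −0.60 for Cd59a (adjusted p = 0.269, edgeR), −0.37 for Nkx2-9, −0.32 for Agmo, −0.29 for Hcn2, −0.19 for Enpp6, −0.17 for Uchl1, −0.40 for Idi1, 0.35 for Stat3 and 1.34 for Gm4221. The remaining 10 lay between −0.34 (Anxa5) and −0.02 (Selenop). For Ptgds the ratios to the other oligodendrocytes overlapped between the genotypes, with 0.0670 and 0.157 in WT and 0.157 to 0.207 in Rag1-/-.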

How the results depend on the processing

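The 85 genes called between genotypes in Oligo2c became 169 with no filter on low counts, 534 with all genes of the joint table, where genes listed for 1 genotype alone enter as 0 in the other, and 23 without genes that share exons. Leaving out each library in turn gave 51 to 94. The 32 genes of the within-library comparison became 14 by DESeq2, 54 with no filter, 7 against Oligo2a and Oligo2b, 11 against Oligo2a, 8 against Oligo2b and 0 with no library block, and 15 to 45 with each library left out. The log2 difference in the Oligo2c share of all oligodendrocytes, −0.24, was −0.33 to −0.12 with each library left out. Over Oligo2 cells it was −0.55, where it passed, and −0.59 to −0.53 with each library left out, where it did not pass without WT library 2. Of the 3 markers, those whose difference between genotypes turned sign were S100b (−0.0095 with batch numbers as a block, −0.024 by limma, and −0.15 to 0.25 with each library left out) and Piezo2 (−0.47 to 0.14 with each library left out, 0.14 being without WT library 2), neither of which passed. The median of myelin proteins turned from −0.06 to 0.02 without Rag1-/- library 1. In the within-library comparison Piezo2 was −0.069 and Hopx 0.0081 against Oligo2b, and Selenop 0.044 against Oligo2a. Other leading genes that turned sign there were H2-D1 (0.30 against all others, −0.17 against Oligo2a and −0.16 against Oligo2b), B2m (0.16, −0.25 and −0.37), Serpina3n (0.28, and −0.089 against Oligo2b) and Apod (−0.11, and 0.037 against Oligo2a). Of these 4, only Apod passed in any of these sets, against Oligo2b (−0.26, adjusted p = 0.0351, edgeR). Thinned to 1000 and 4000 UMIs, Klk6 was found in 37.2% and 63.0%, S100b in 42.7% and 71.9% and Piezo2 in 3.73% and 15.5% of Oligo2c cells. The mean log2 ratio of Piezo2 to the other cells was 2.39 with a pseudocount of 2 and 0.82 with 50. Libraries with the same batch number were not paired across genotypes in the main tests. Deviations of such libraries from their group means correlated at −0.147 to −0.0433. The deviations of the 2 WT libraries are mirror images of each other, so these values cannot decide whether a batch is shared. With batch numbers as a block 77 genes passed, 73 of them among the 85, and the share difference was −0.25. WT library 1, with 36 cells, limits the precision of every WT value.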
